A study of Mus musculus with 2 samples.

Results

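The data describe 10 genes of matrix turnover in the mouse periosteum: the matrix metalloproteinases (MMPs) Mmp2, Mmp3, Mmp9, Mmp13, Mmp14, and Mmp16 and the tissue inhibitors of metalloproteinases Timp1, Timp2, Timp3, and Timp4. They were chosen by gene symbol among the 32288 features counted, of which 32285 were mouse genes and 3 were reporter sequences. All 10 symbols were found once each.

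MMPs are zinc-dependent enzymes that cut the proteins of the extracellular matrix, and most are made as inactive proenzymes. Mmp2 and Mmp9 are the gelatinases, which cut denatured collagen and basement membrane collagen. Mmp13 is the main fibrillar collagenase of the mouse, Mmp3 is a stromelysin with a broad range of substrates, and Mmp14 and Mmp16 are anchored in the plasma membrane. Mmp14 also activates pro-Mmp2, with Timp2 as a bridge. TIMPs bind active MMPs and block them, and Timp3 stays bound to the matrix. In bone, Mmp9 is known from osteoclasts and neutrophils, and Mmp13 from hypertrophic chondrocytes and osteoblasts.

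Periosteal cells came from femurs and tibias of WT C57BL6 mice that were 4 weeks old. The tissue was digested with collagenase and sorted by CD45, CD31, Ter-119, and DAPI, and the study describes the collected cells as negative for the first 3. Cells of 2 libraries, replicates of a single condition, were measured by 10x 3' scRNA-Seq, which counts unique molecular identifiers (UMIs). The number of mice behind a library is not given in the sources used here, and nothing says that the libraries came from separate mice, so p-values measure only the spread between these libraries. Cells were kept at 500 or more genes and UMIs and up to 10% of UMIs from mitochondrial genes, which left library 1 with 6276 cells at a median of 8164 UMIs and library 2 with 2893 cells with a median of 6279 UMIs. The libraries shared 7 barcodes among these cells.

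The data went against the sort and the genotype in part. Blood clusters made up 5831 cells of library 1 and 1769 cells of library 2, and stromal clusters 374 and 1061. Library 2 held EGFP UMIs in 69 of 121 hypertrophic chondrocyte-like cells, whereas library 1 held none in any cell, and tdTomato UMIs were found in 1027 cells of library 1 and 846 of library 2. Values are therefore given for each library. The 16 classes entered in a single model were 5 stromal classes, 10 blood classes, and skeletal muscle-like cells, and levels are given as counts (UMIs) of a gene per 1000000 UMIs of the class (CPM), with exact Poisson intervals that cover counting error only. The osteogenic progenitor-like cluster (34 and 60 cells) needs care, and its name is provisional. It carried 7 of its 9 markers against all other cells but only 3 of 9 against other stromal cells. Its 10 leading genes were Mmp9 itself, Fabp5, Tnc, and histone and cell cycle genes, with none of its own markers.

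The promoters of Mmp13 and Mmp3, both on chromosome 9, are shown because only these 2 of the 7 members with a promoter sequence held a searched motif. Sequences are the 150 bases upstream of the annotated start from RefSeq (GRCm38.p6, plus strand, 5′ to 3′), with searched motifs in capitals: the AP-1 site (TGACTCA or TGAGTCA), the RUNX site (AACCACA or its reverse complement TGTGGTT), and the TATA box (TATAAA, plus strand of the gene only).
Mmp13, chr9:7272364-7272513: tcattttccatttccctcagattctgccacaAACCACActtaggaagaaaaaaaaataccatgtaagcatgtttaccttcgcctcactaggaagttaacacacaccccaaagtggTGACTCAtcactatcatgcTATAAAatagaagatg
Mmp3, chr9:7445672-7445821: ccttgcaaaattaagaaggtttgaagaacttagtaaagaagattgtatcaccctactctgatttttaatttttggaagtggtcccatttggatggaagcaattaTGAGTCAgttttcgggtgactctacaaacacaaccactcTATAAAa
The AP-1 letters began 35 bases before the start in Mmp13 and 46 bases before it in Mmp3, and the RUNX letters 119 bases before the start in Mmp13. The TATAAA letters began 16 bases before the annotated start in Mmp13 and 7 bases before it in Mmp3. Whether any of these letters act as sites was not tested. Among all 32851 mouse promoters of this length, 2.84% held the AP-1 letters, 2.61% the RUNX letters, and 4.84% the TATA box. Promoters were matched for Mmp3, Mmp13, Mmp14, Timp1, Timp2, Timp3, and Timp4. The Mmp13 gene lies at chr9:7272514-7283331 on the plus strand and Mmp3 at chr9:7445822-7455975 on the plus strand (GENCODE M21, GRCm38). The other proteases lie on the plus strand at chr8:92827291-92853420 (Mmp2), chr2:164940780-164955850 (Mmp9), chr14:54431612-54445364 (Mmp14), and chr4:17852893-18119145 (Mmp16). Of the inhibitors, Timp1 (chrX:20870166-20874735) and Timp3 (chr10:86300372-86349506) lie on the plus strand, and Timp2 (chr11:118301069-118355740) and Timp4 (chr6:115241892-115252205) on the minus strand. Values are for whole genes, from reads near their 3' ends.

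Stromal cells carried most of the UMIs of these genes, with Mmp9 in library 1 as the exception. They held 6.27% of all UMIs in library 1 and 46.1% in library 2, but 97.2% and 99.7% of Mmp2, 96.1% and 99.5% of Mmp13, 98% and 100% of Mmp16, and 98.3% and 99.7% of Timp1. Mmp14 was divided less sharply, with 71.2% and 95.1% in stromal cells. Of the Mmp9 UMIs, stromal cells held 13.3% and 68.1%, whereas the 3 neutrophil classes held 80.8% and 29.2%. These classes made up 17.9% and 7.95% of all UMIs. In library 2, 7 cells held 1625 of the 1948 stromal Mmp9 UMIs. Timp2 was also shared, with 54.8% and 95.6% in stromal cells and 37.8% and 1.47% in neutrophil classes. The division by UMIs moves with the cells captured, which differed between libraries, so levels within a class follow.

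**Figure D1:**
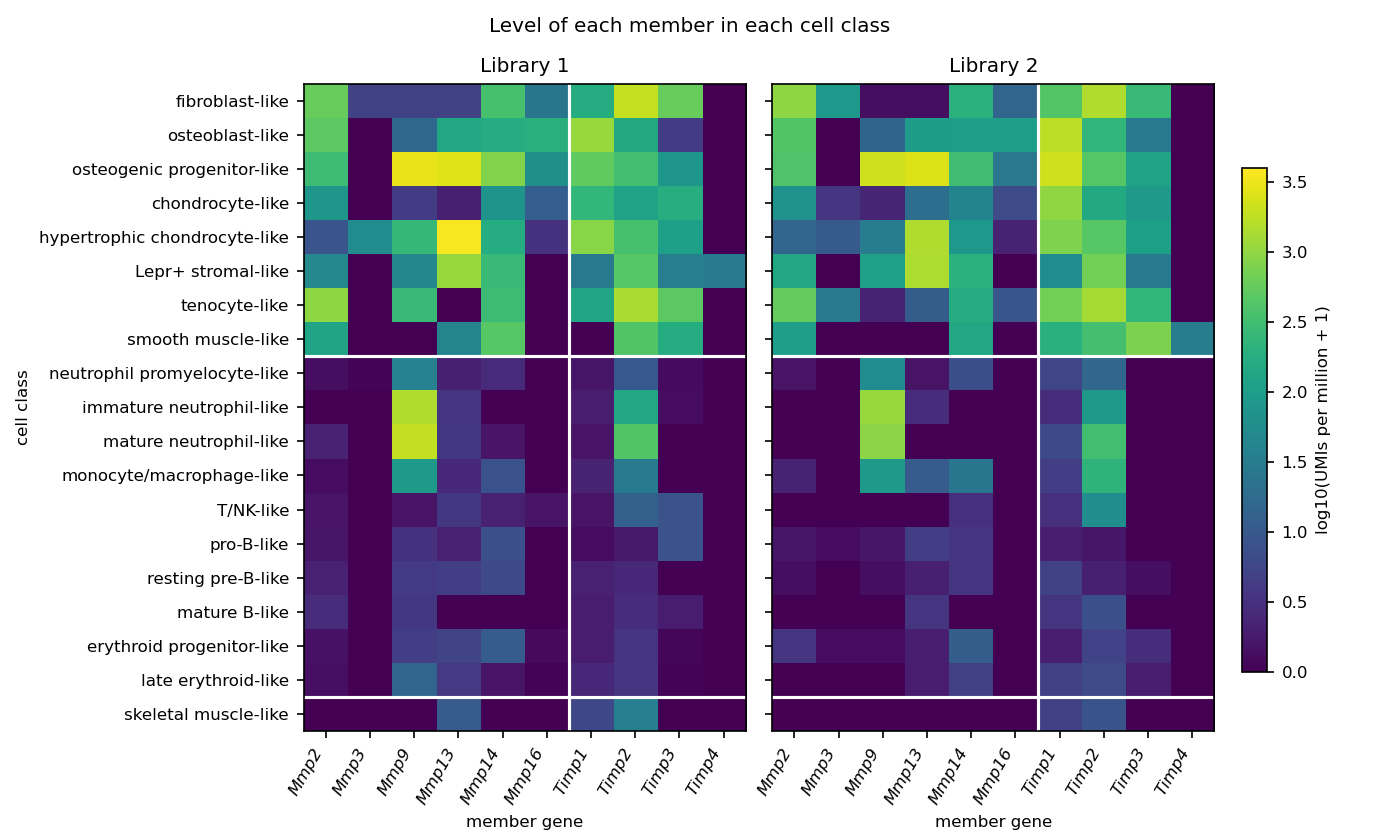
Level of each of the 10 members (columns) in each cell class (rows) for library 1 (left) and library 2 (right), as log10 of CPM + 1 by color. Mmp2, Mmp14, Mmp16, and Timp1 stood above every blood class in all 5 stromal classes of the model. In hypertrophic chondrocyte-like cells Mmp16 rested on few UMIs. Mmp9 was high in 1 stromal cluster and in neutrophils. Timp4 had UMIs only in Lepr+ stromal-like cells of library 1 and smooth muscle-like cells of library 2 among the classes shown.

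Averaged over classes, each class counted equally, Mmp2 stood at 291 CPM in stromal classes and 0.693 in blood classes of library 1, and at 374 and 0.542 in library 2. Mmp14, the membrane-anchored activator of Mmp2, stood at 317 and 3.33, and at 148 and 5.21. Timp1 stood at 587 and 0.875 in library 1 and at 1233 and 3 in library 2. For Mmp2, Mmp14, Mmp16, and Timp1 the lowest stromal class was above the highest blood class in both libraries. Timp3 did so only in library 2, and osteoblast-like cells of library 1 stood at 3.19. For Mmp16 the separation rested on few UMIs. Its lowest stromal class, hypertrophic chondrocyte-like cells, stood at 2.24 and 1.18, against at most 0.561 and 0 in blood classes.

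In the edgeR quasi-likelihood model, 7 of the 9 members tested were higher in stromal than in blood classes and 0 were lower, where 34.6% of all 13188 genes tested were higher and 26.8% lower. The unadjusted p was under 0.05 for the same counts, 7 and 0 (4736 and 3695 of all genes). DESeq2 also called 7 and 0 (5192 and 3268 of all genes). Timp4 did not pass the filter on low counts. In every comparison classes were averaged on the log scale, so classes with few UMIs pull a mean lower than in the CPM means above. Timp1 was higher by 8.97 ± 0.34 (log2 fold ± SE, adjusted p = 6.89e-20), Mmp2 by 8.09 ± 0.29 (adjusted p = 1.55e-19), and Mmp14 by 6.83 ± 0.34 (adjusted p = 2.65e-14). Mmp16 was higher by 7.84 ± 0.56, Timp3 by 7.95 ± 0.53, and Mmp13 by 5.19 ± 0.89. Timp2 had the smallest called difference, 4.65 ± 0.26. Some blood classes held 0 UMIs in both libraries. Among them were monocyte/macrophage-like and mature neutrophil-like cells for Mmp16 and Timp3, and immature neutrophil-like cells for Mmp2, Mmp14, and Mmp16. This raises the fitted differences of these members, so their direction is better known than their size. Mmp9 stood at 657 and 348 CPM in stromal and blood classes of library 1 and at 440 and 219 in library 2, and its difference of 0.52 ± 0.58 did not pass (adjusted p = 0.490, and 0.00895 to 0.703 over the alternatives). Mmp9 was called higher at clustering resolution 0.4 (2.79) and was negative but not called at resolution 1.2 (-0.89), with skeletal muscle-like cells in the stromal mean (-1.02), and without the osteogenic progenitor-like cluster (-1.11). At resolution 0.4 no neutrophil class entered the fit, and at resolutions 0.4 and 1.2 no osteogenic progenitor-like class did. The main model gave no usable error for Mmp3, which was at 0 in many classes. The median log2 fold was 7.34 over the members and 0.12 over all genes. With skeletal muscle-like cells added to the stromal mean, 3 members were called higher instead of 7, and Mmp2 (6.1), Mmp14 (4.83), Mmp16 (6.39), and Timp3 (6.08) were not called. These, like Mmp9, had 0 UMIs in skeletal muscle-like cells of both libraries, so this alternative cannot measure their differences.

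Among the stromal classes of the model, Mmp2 was highest in fibroblast-like and osteoblast-like cells. Fibroblast-like cells, which express Pi16 and Mfap5, stood at 579 and 960 CPM in libraries 1 and 2, osteoblast-like cells at 500 and 421, the osteogenic progenitor-like cluster at 290 and 406, chondrocyte-like cells at 79.2 and 66.9, and hypertrophic chondrocyte-like cells at 7.84 and 14.1. Tenocyte-like cells, outside the model with 3 and 96 cells, stood at 957, with 33 of 43 UMIs in 1 cell, and at 569. The libraries' ranges of neighboring model classes in this order did not overlap. Within single libraries 2 neighbors were not apart by counting error: fibroblast-like over osteoblast-like cells in library 1 (ratio 1.16, interval 0.966 to 1.38) and osteoblast-like cells over the osteogenic progenitor-like cluster in library 2 (ratio 1.04, interval 0.919 to 1.18). The ratio of osteoblast-like to chondrocyte-like cells was 6.31 in library 1 and 6.29 in library 2. Mmp2 UMIs were found in 273 of 292 fibroblast-like cells of library 2 (93.5%), against 3 of 1175 B-lineage cells (0.255%), which should lack the gene. Median depths were 9200 and 3757 UMIs, and after thinning to 1000 UMIs the shares were 56.1% and 0.0670%.

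Mmp16, the other membrane-anchored protease, marked osteoblast-like cells. These stood at 183 and 104 CPM, the osteogenic progenitor-like cluster at 60.8 and 26.0, fibroblast-like cells at 24.5 and 13.8, chondrocyte-like cells at 11 and 5.71, and hypertrophic chondrocyte-like cells at 2.24 and 1.18. The ratio of osteoblast-like to fibroblast-like cells was 7.49 (interval 3.42 to 20.5) in library 1 and 7.54 (5.38 to 10.9) in library 2. Both osteoblast-like clusters carried it, at 186 and 98.8 in the cluster led by Ifitm5, Bglap3, and Bglap2 and at 177 and 114 in the cluster led by Gal, Bglap, and Col1a2. Neighbors in this order had ranges over the libraries that did not overlap. The hypertrophic chondrocyte-like level rested on few UMIs, and its ratio of library 1 to library 2 had an interval of 0.138 to 26.3. A processed pseudogene, Gm11860, lies within the gene on the opposite strand.

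Mmp14 was the most evenly spread protease of the stroma. The osteogenic progenitor-like cluster stood at 824 and 314 CPM, fibroblast-like cells at 355 and 201, osteoblast-like cells at 170 and 99.6, hypertrophic chondrocyte-like cells at 167 and 82.9, and chondrocyte-like cells at 71.5 and 41.6. The ranges of the first and second class overlapped, as did those of osteoblast-like and hypertrophic chondrocyte-like cells. In library 1, 1 cell held 34.2% of the UMIs of the osteogenic progenitor-like cluster, which stood at 577 without it. In blood, monocyte/macrophage-like cells stood at 7.13 and 24.3, and 11 of 23 and 11 of 20 UMIs came from 1 cell in each library, without which the levels were 3.78 and 11.5. Erythroid progenitor-like cells carried a low level of 10.2 and 10.4, with a UMI in 200 of 683 and 21 of 75 cells. B-lineage cells stood at 5.5 and 2.28, with a UMI in 65 of 2223 and 15 of 1175 cells. Erythroid progenitor-like cells were far deeper, at a median of 49820 and 46126 UMIs against 3512 and 3757, and after thinning to 1000 UMIs the shares were 0.876% and 0.836% against 0.324% and 0.178%.

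Mmp3 was rare and differed between libraries. Fibroblast-like cells stood at 4.08 CPM in library 1, from 1 UMI, and at 81.1 in library 2, with a UMI in 32 of 292 cells. The fibroblast-like cluster led by Mfap4, Eln, and Apod carried it at 186 in library 2, and the cluster led by Pi16, Mfap5, and Ly6a at 20.2. Hypertrophic chondrocyte-like cells stood at 53.7 and 9.41, but 39 of the 48 UMIs of library 1 came from 1 cell, without which the level was 10.3. Osteoblast-like cells held 0 UMIs in both libraries, which allows a level of up to 1.19 and 0.993.

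Mmp13 was carried by hypertrophic chondrocyte-like cells and the osteogenic progenitor-like cluster. The former stood at 3617 CPM in library 1 and 1500 in library 2, the latter at 2627 and 2535, so that their order turned between libraries (ratio 1.38, interval 1.28 to 1.48, and ratio 0.592, interval 0.558 to 0.628). Chondrocyte-like cells stood at 1.10, from 1 UMI, and at 19.3, of which 48 of 71 UMIs came from 1 cell. Osteoblast-like cells stood at 145 and 92.4, and fibroblast-like cells at 4.08 and 0.364, each from 1 UMI. In hypertrophic chondrocyte-like cells 75 of 85 and 87 of 121 cells had a UMI of Mmp13, against 21 of 2223 and 12 of 1175 B-lineage cells. The tenth of cells with the most UMIs held 48.3% and 58.6% of them there, 63.1% and 76.6% in the osteogenic progenitor-like cluster, and 96.2% and 93.2% in osteoblast-like cells. Lepr+ stromal-like cells, a cluster with Cxcl12 among its leading genes, were outside the model with 63 and 7 cells. They stood at 1103 and 1430 with a UMI in 48 of 63 and 6 of 7 cells. An unnamed stromal cluster led by Gm26917, Map1b, and Ank reached 6620 and 3132, and 54.1% of its UMIs in library 1 came from 1 cell.

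**Figure D2:**
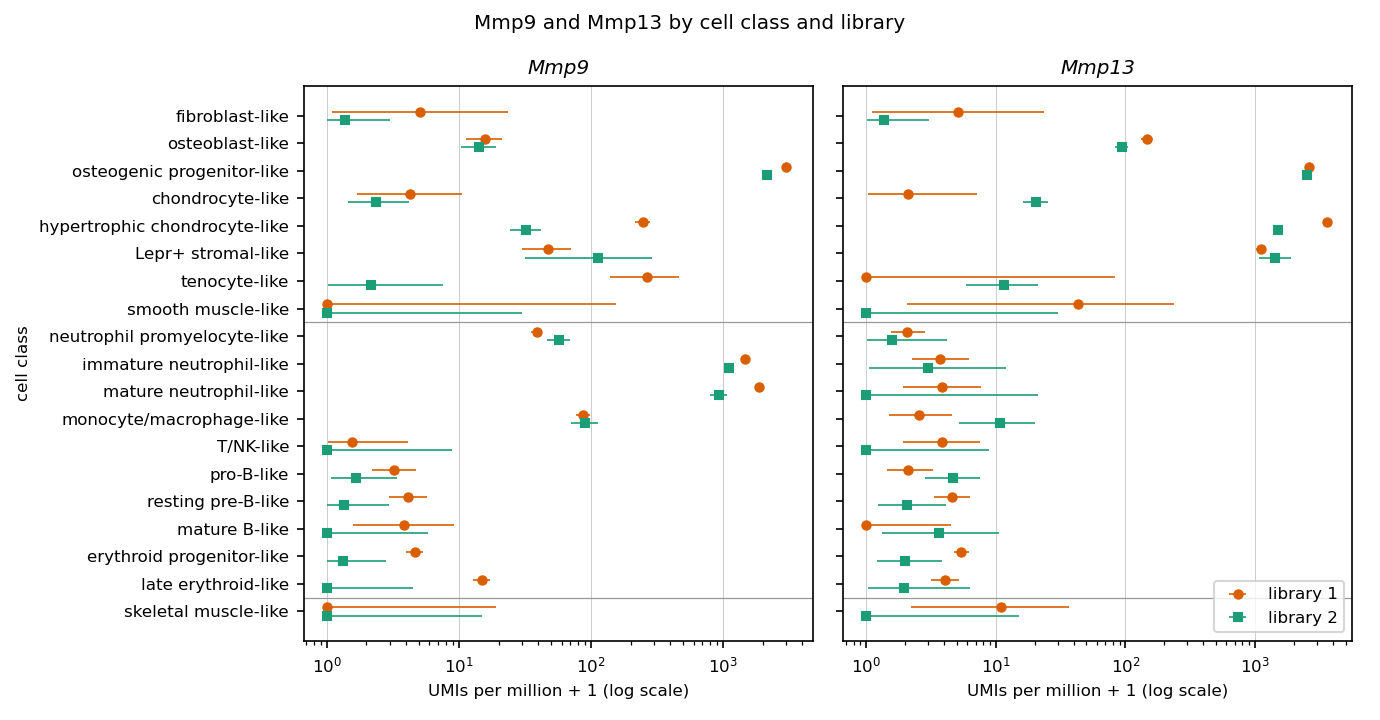
Mmp9 (left) and Mmp13 (right) in each cell class, as CPM + 1 on a log axis, with a point for each library and a bar for the exact Poisson interval of the level. The osteogenic progenitor-like cluster was high for both genes (3014 and 2154 for Mmp9, 2627 and 2535 for Mmp13), neutrophils only for Mmp9, and hypertrophic chondrocyte-like cells for Mmp13.

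Mmp9 was divided between neutrophils and the osteogenic progenitor-like cluster. The cluster stood at 3014 CPM in library 1 and 2154 in library 2, mature neutrophil-like cells at 1865 and 930, and immature neutrophil-like cells at 1462 and 1117. Neutrophil promyelocyte-like cells, the precursors of both, stood at 37.8 and 55.9. In library 2, 52 of their 98 UMIs came from 1 cell that also held 546 UMIs of Acp5 and 628 of Ctsk, osteoclast genes, and without it the level was 27.1. The ratio of the cluster to mature neutrophil-like cells was 1.62 (interval 1.51 to 1.73) and 2.32 (1.98 to 2.72). Without its highest cell in each library, the cluster stood at 1834 and 1017, against 1865 and 930 in mature neutrophil-like cells. The ratio of mature to immature neutrophil-like cells was 1.28 (1.22 to 1.33) in library 1 and 0.833 (0.698 to 0.990) in library 2. Outside these classes, hypertrophic chondrocyte-like cells stood at 246, with 91 of 220 UMIs in 1 cell, and at 31.2, osteoblast-like cells at 14.7 and 13.2, chondrocyte-like cells at 3.30 and 1.36, and fibroblast-like cells at 4.08 and 0.364.

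The spread of Mmp9 over cells differed in kind between these classes. In mature neutrophil-like cells 335 of 344 and 37 of 42 cells had a UMI, in immature ones 338 of 367 and 47 of 51, and no cell held more than 40. In B-lineage cells, 35 of 2223 and 3 of 1175 cells had a UMI (1.57% and 0.255%), at median depths of 3512 and 3757 against 4418 and 3564 in mature neutrophil-like cells. After thinning to 1000 UMIs, the shares in mature neutrophil-like cells were 78.6% and 54.3%, against 0.335% and 0.0187%. In the osteogenic progenitor-like cluster the median cell held 0 UMIs, and 3 of 34 and 7 of 60 cells with at least 50 UMIs each held 92.6% of 1090 and 93.3% of 1742 UMIs. The other cells of the cluster stood at 254 and 162 CPM. The highest cells held 467 and 943 UMIs.

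Those 10 cells with at least 50 Mmp9 UMIs were described further. All 10 also carried Mmp13, with 18 to 525 UMIs. None held a UMI of Ptprc, the pan-leukocyte gene for CD45, or of Ocstamp, an osteoclast fusion gene, and none held more than 1 UMI of Acp5, the osteoclast acid phosphatase, or more than 7 of the neutrophil gene S100a8. Ctsk, the collagen-cutting cathepsin of osteoclasts, was found in 9 of the 10, with up to 19 UMIs. Of the osteoblast genes, Runx2 was found in 8 cells (up to 7 UMIs), Alpl in 7 (up to 23), Sp7 in 5 (up to 3), and Spp1 in 7 (up to 188), and 9 of the 10 held at most 10 UMIs of Col1a1 and at most 39 of Ibsp, where the remaining cell held 648 and 560. Their place depended on the clustering. At resolution 0.4, 8 fell among Lepr+ stromal-like cells and 2 among osteoblast-like cells, at resolution 1.2 all 10 were in unnamed clusters, without integration 9 stayed, and with a minimum of 1000 genes and at most 5% mitochondrial UMIs 8 stayed and 2 were removed. Under that filter mature neutrophil-like cells led for Mmp9, with 2138 and 1720 against 1383 and 1670 in the cluster. In library 2, cells of the cluster with cell cycle UMIs stood at 236 and cells without them at 6658, whereas in library 1 they stood at 3062 and 2932. The cells with cell cycle UMIs were deeper, at a median of 21478 against 4078 UMIs in library 2 and 11817 against 4527 in library 1. Cells of the cluster with UMIs of neutrophil genes stood at 325 and cells without them at 3510 in library 2, and in library 1 at 3046 in 32 cells and at 0 in 2 cells. The part of these features in the level of the cluster was not tested. At resolution 0.4 the Lepr+ stromal-like class, with 86 and 40 cells, stood at 1342 and 7554 CPM of Mmp9 in libraries 1 and 2. In the main clustering that class, with 63 and 7 cells, stood at 46.1 and 112.

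**Figure D3:**
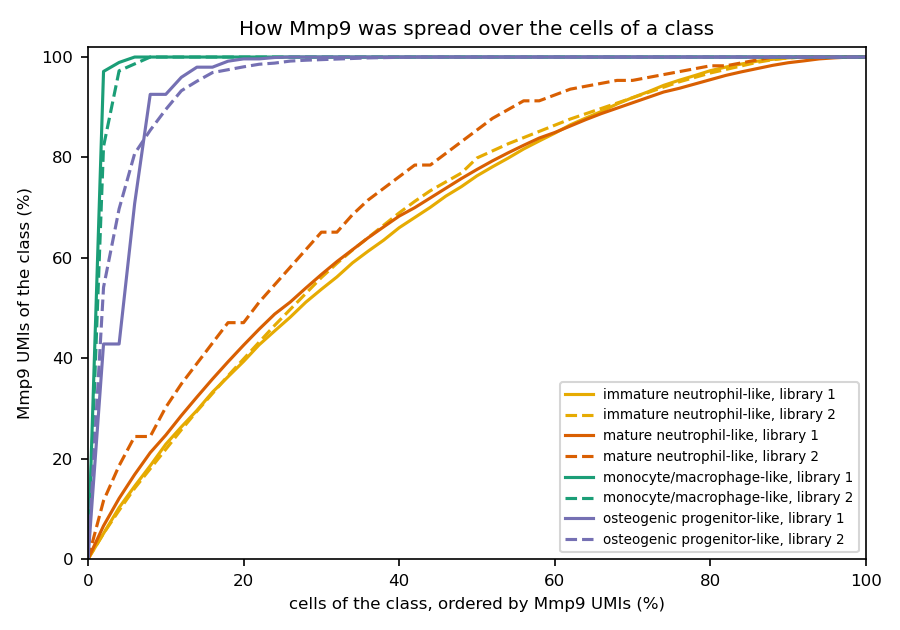
Cumulative share of a class's Mmp9 UMIs (vertical axis, percent) over its cells ordered from the highest Mmp9 count (horizontal axis, percent of cells), with a line for each class and library. The lines of the osteogenic progenitor-like cluster and of monocyte/macrophage-like cells rose almost at once (4 of 34 and 6 of 60 cells of the cluster held 96.0% and 89.6%), whereas in mature neutrophil-like cells the tenth of cells with the most UMIs held 25.3% and 34.9%.

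Monocyte/macrophage-like cells stood at 86.5 and 88.8 CPM of Mmp9, and this level came from single cells. In library 1, 1 cell held 244 of 279 UMIs, and in library 2, 1 cell held 60 of 73, and without them the levels were 11 and 16.6. Both cells carried osteoclast genes, with 428 and 731 UMIs of Acp5, 554 and 730 of Ctsk, and 12 and 9 of Ocstamp. At least 3 of 6 osteoclast markers were found in 2 of 244 and 4 of 72 cells of this class and in 1 of 332 and 2 of 50 neutrophil promyelocyte-like cells.

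Among the inhibitors, Timp1 was high in every stromal class of the model. Osteoblast-like cells stood at 1099 CPM in library 1 and 1768 in library 2, the osteogenic progenitor-like cluster at 517 and 2155, hypertrophic chondrocyte-like cells at 909 and 807, chondrocyte-like cells at 239 and 1001, and fibroblast-like cells at 171 and 434. The ranges over the libraries overlapped between each class and the next in this order. The ratio of osteoblast-like to fibroblast-like cells was 6.42 and 4.08. In fibroblast-like cells of library 2, 366 of 1192 UMIs came from 1 cell, without which the level was 303. Lepr+ stromal-like cells had little, at 27.3 and 56.1. Timp1 lies within Syn1 on the opposite strand, and Syn1 itself held 13 and 25 UMIs in all kept cells.

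Timp2 was highest in fibroblast-like cells and was also carried by neutrophils. Fibroblast-like cells stood at 1948 and 1477 CPM, with a UMI in 19 of 19 and 290 of 292 cells, and osteoblast-like cells at 153 and 235, a ratio of 12.7 and 6.28. Tenocyte-like cells stood at 1380 and 1304. Hypertrophic chondrocyte-like cells stood at 359 and 468, the osteogenic progenitor-like cluster at 318 and 448, and chondrocyte-like cells at 118 and 154. In blood, mature neutrophil-like cells stood at 424 and 319, immature ones at 140 and 88.6, and promyelocyte-like ones at 8.69 and 14.3. The ratio of mature to immature neutrophil-like cells was 3.04 (interval 2.70 to 3.42) and 3.6 (2.40 to 5.43), so that Timp2 was higher in the mature class in both libraries, where Mmp9 was not. The ranges of hypertrophic chondrocyte-like cells, the osteogenic progenitor-like cluster, and mature neutrophil-like cells overlapped, and all 3 lay below fibroblast-like cells. Monocyte/macrophage-like cells stood at 30.4 and 221 and T/NK-like cells at 11.8 and 57.6. B-lineage cells stood at 1.25 and 1.52. Cep295nl overlaps Timp2 on the same strand, so reads there cannot be told apart.

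Timp3 followed another pattern. Fibroblast-like cells stood at 587 and 274 CPM, with 60 of 144 UMIs of library 1 in 1 cell, chondrocyte-like cells at 176 and 85.7, hypertrophic chondrocyte-like cells at 106 and 112, the osteogenic progenitor-like cluster at 77.4 and 116, and osteoblast-like cells at 3.19 and 27.5. In library 1, 106 of 160 UMIs of chondrocyte-like cells came from 1 cell, without which the level was 62.7. Among the 5 stromal classes of the model, fibroblast-like cells stood apart above the others and osteoblast-like cells below them, and the 3 classes between overlapped. Outside the model, tenocyte-like cells stood at 490, with 14 of 22 UMIs in 1 cell, and at 243, so that they overlapped fibroblast-like cells. Smooth muscle-like cells (4 and 19 cells) stood at 168 and 766. Timp4 had 18 and 8 UMIs in all kept cells, of which Lepr+ stromal-like cells held 14 in library 1 and smooth muscle-like cells 4 in library 2. It had 0 UMIs in the 5 stromal classes of the model, which allows levels of up to 0.816 to 12.2. Timp3 overlaps Syn3 and Timp4 overlaps Syn2, each on the opposite strand.

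Proteases and inhibitors were often found in the same cells, mostly in classes where each gene was found in most cells. Mmp9 was found in 335 and Timp2 in 288 of 344 mature neutrophil-like cells of library 1. Mmp2 was found in 92 and Timp1 in 93 of 95 osteoblast-like cells of library 1, and Mmp2 in 273 and Timp2 in 290 of 292 fibroblast-like cells of library 2. Overlap beyond these shares was not tested. In library 1, 284 of 344 mature neutrophil-like cells had UMIs of both Mmp9 and Timp2, and in library 2, 25 of 42 did. Among fibroblast-like cells 14 of 19 and 271 of 292 had both Mmp2 and Timp2, and among osteoblast-like cells 91 of 95 and 146 of 186 had both Mmp2 and Timp1. In hypertrophic chondrocyte-like cells 68 of 85 and 84 of 121 had both Mmp13 and Timp1. In the osteogenic progenitor-like cluster, 8 of 9 and 15 of 25 cells with Mmp9 also had Timp1, which 19 of 34 and 39 of 60 of all its cells had. Of the same cells, 8 of 9 and 21 of 25 had Mmp13, which 27 of 34 and 39 of 60 of all had.

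The balance was read as the share of protease UMIs among the UMIs of all 10 members, which is a description because 3' UMIs were not scaled for length and say nothing of protein or activity. Proteases made up 91.2% (interval 90.4 to 92.0) and 92.5% (90.1 to 94.5) in immature and 81.5% (80.3 to 82.7) and 74.1% (68.0 to 79.6) in mature neutrophil-like cells. They made up 88.2% and 66.7% in the osteogenic progenitor-like cluster and 74.9% and 54.2% in hypertrophic chondrocyte-like cells. At the other end stood fibroblast-like cells with 26.4% and 36.5%, osteoblast-like cells with 44.7% and 26.5%, and chondrocyte-like cells with 23.8% and 9.99%. The shares of the 2 libraries had separate intervals in each of the 5 stromal classes, and among these chondrocyte-like cells had the lowest share in both libraries. In library 1 the interval of chondrocyte-like cells (20.5 to 27.3) overlapped that of fibroblast-like cells (23.5 to 29.4). T/NK-like cells stood at 22.2% and 3.45%, with 35 and 28 inhibitor UMIs and 10 and 1 protease UMIs.

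**Figure D4:**
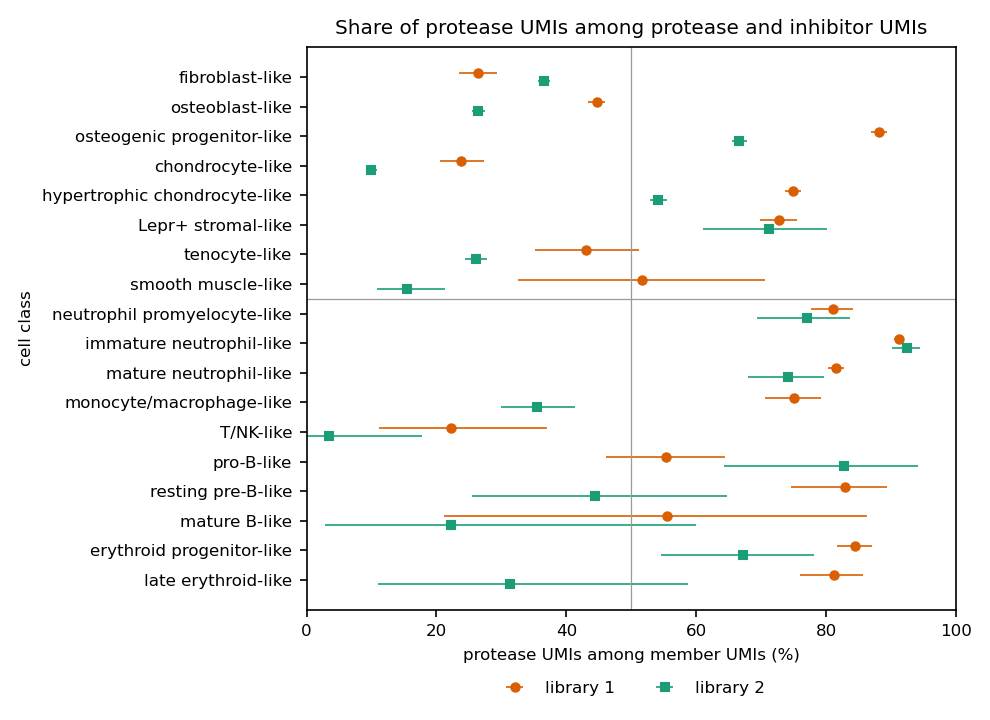
Share of protease UMIs among all protease and inhibitor UMIs of a cell class (horizontal axis, percent), with a point for each library and a bar for the exact binomial interval of the share. Immature neutrophil-like cells sat at 91.2% and 92.5%, and chondrocyte-like cells at 23.8% and 9.99%.

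The libraries differed in the same direction for several members. Mmp9, Mmp14, and Mmp16 were higher in library 1 in 5 of 5 stromal classes, with intervals of the ratio above 1 in 2, 5, and 2 of them. The ratio of library 1 to library 2 for Mmp14 lay between 1.70 in osteoblast-like cells and 2.62 in the osteogenic progenitor-like cluster. Timp1 and Timp2 were higher in library 1 in only 1 of 5 classes, with intervals below 1 in the other 4. With 1 library on each side this difference could not be tested.

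Among stromal classes, fibroblast-like cells had 4 members higher and 3 lower than the mean of the other 4 stromal classes (12.2% of all genes higher, 5.96% lower). Mmp2 was higher by 2.55 ± 0.37 on the log2 scale (edgeR, adjusted p = 5.80e-06), Timp2 by 2.37 ± 0.44 (adjusted p = 0.000319), Timp3 by 2.22 ± 0.64 (adjusted p = 0.0143), and Mmp3 by 6.25 ± 1.2 (adjusted p = 0.00141). The libraries disagreed on Mmp3. Fibroblast-like cells of library 1 stood at 4.08 CPM, below hypertrophic chondrocyte-like cells (53.7, or 10.3 without the highest cell). In library 2 these classes stood at 81.1 and 9.41. Osteoblast-like cells and the osteogenic progenitor-like cluster held 0 UMIs of Mmp3, which raises the fitted difference. Mmp13 fell by 8.87 ± 1.27, Mmp9 fell by 6.41 ± 1.43, and Timp1 fell by 2.01 ± 0.61 (adjusted p = 0.018). Mmp14 (0.45 ± 0.49) and Mmp16 (-0.26 ± 0.53) did not pass. The calls of Mmp3 and Timp3 were lost with DESeq2 (5.27 and 2.44) and without integration (2.14 and 1.53). Without integration Mmp9 (-2.13) was not called either, and at clustering resolution 0.4 Timp1 (-1.49) was not.

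Osteoblast-like cells had 2 members higher and 1 lower (7.11% and 3.37% of all genes). Mmp16 was higher by 4.30 ± 0.38 (edgeR, adjusted p = 2.33e-07) and Mmp2 by 2.32 ± 0.37 (adjusted p = 4.85e-05), and Timp3 fell by 2.92 ± 0.88 (adjusted p = 0.0317). Timp1, at 1.43 ± 0.48, missed the threshold (adjusted p = 0.0524), and was called in 8 of 13 settings, among them the model with the library as a replicate block (1.58). With the osteogenic progenitor-like cluster left out of the mean, 4 members were higher and 2 lower (1050 and 608 of all 13188 genes). The call of Timp3 held in 9 of 13 settings.

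Chondrocyte-like cells had no member higher and 3 lower (8.33% and 5.03% of all genes). Mmp13 fell by 3.57 ± 0.94 (edgeR, adjusted p = 0.00863), Mmp9 fell by 4.36 ± 1.23 (adjusted p = 0.0173), and Mmp14 fell by 1.81 ± 0.58 (adjusted p = 0.0386). At an unadjusted p under 0.05, 0 members were higher and 6 lower (1983 and 1459 of all 13188 genes). DESeq2 called 0 and 5 (864 and 850 of all genes). With the replicate block 6 were lower (1151 of all genes), Mmp2 (-1.18), Mmp16 (-1.15), and Timp2 (-1.61) being the others. The count was 1 when the osteogenic progenitor-like cluster was left out of the mean, and this was Timp2 (-1.74). There Mmp13 (-2.29), Mmp9 (-2.48), and Mmp14 (-1.43) were not called. The count was also 1 with the stricter cell filter, where Mmp9 (-3.91) and Mmp14 (-1.62) were not called, and 0 at clustering resolution 1.2. Over all genes these counts were 624, 656, and 598.

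In blood, mature neutrophil-like cells had 2 members higher than the mean of the other 9 blood classes and 0 lower (18.0% of all genes higher, 19.3% lower). That mean was on the log scale, where classes with few UMIs pulled it down. It included immature neutrophil-like cells, which stood at 1462 and 1117 CPM of Mmp9 against 1865 and 930 in mature ones. Mmp9 was higher by 7.78 ± 0.49 (edgeR, adjusted p = 1.37e-12) and Timp2 by 5.88 ± 0.36 (adjusted p = 1.66e-12). Both were called in all 12 settings. At an unadjusted p under 0.05 the counts were also 2 and 0 (2684 and 3106 of all 13188 genes). They were the same by DESeq2 (2700 and 1646 of all genes). The median log2 fold of all genes was -0.54 here, and with DESeq2's size factors 2854 genes were higher and 1886 lower in place of 2379 and 2542.

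Monocyte/macrophage-like cells had 3 members higher and 0 lower (16.6% and 1.43% of all genes), with the same counts at an unadjusted p under 0.05 and by DESeq2. Over all 13188 genes, 3040 were higher and 524 lower at that unadjusted p, and 1773 and 384 by DESeq2. Timp2 was higher by 3.35 ± 0.40 (edgeR, adjusted p = 5.16e-07), Mmp14 by 3.59 ± 0.67 (adjusted p = 0.000293), and Mmp9 by 2.55 ± 0.59 (adjusted p = 0.00225). Without the cells that carried at least 3 osteoclast markers, only Timp2 was called, and Mmp9 stood at -0.09 and Mmp14 at 1.21. There 2107 of all 13168 genes were higher and 177 lower. The Timp2 UMIs of monocyte/macrophage-like cells also lay in few cells. The median cell held 0, and 25 of 244 and 8 of 72 cells held 82.7% and 84.6% of them. Timp2 stood at 30.4 CPM in this class of library 1 and at 221 in library 2.

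**Figure D5:**
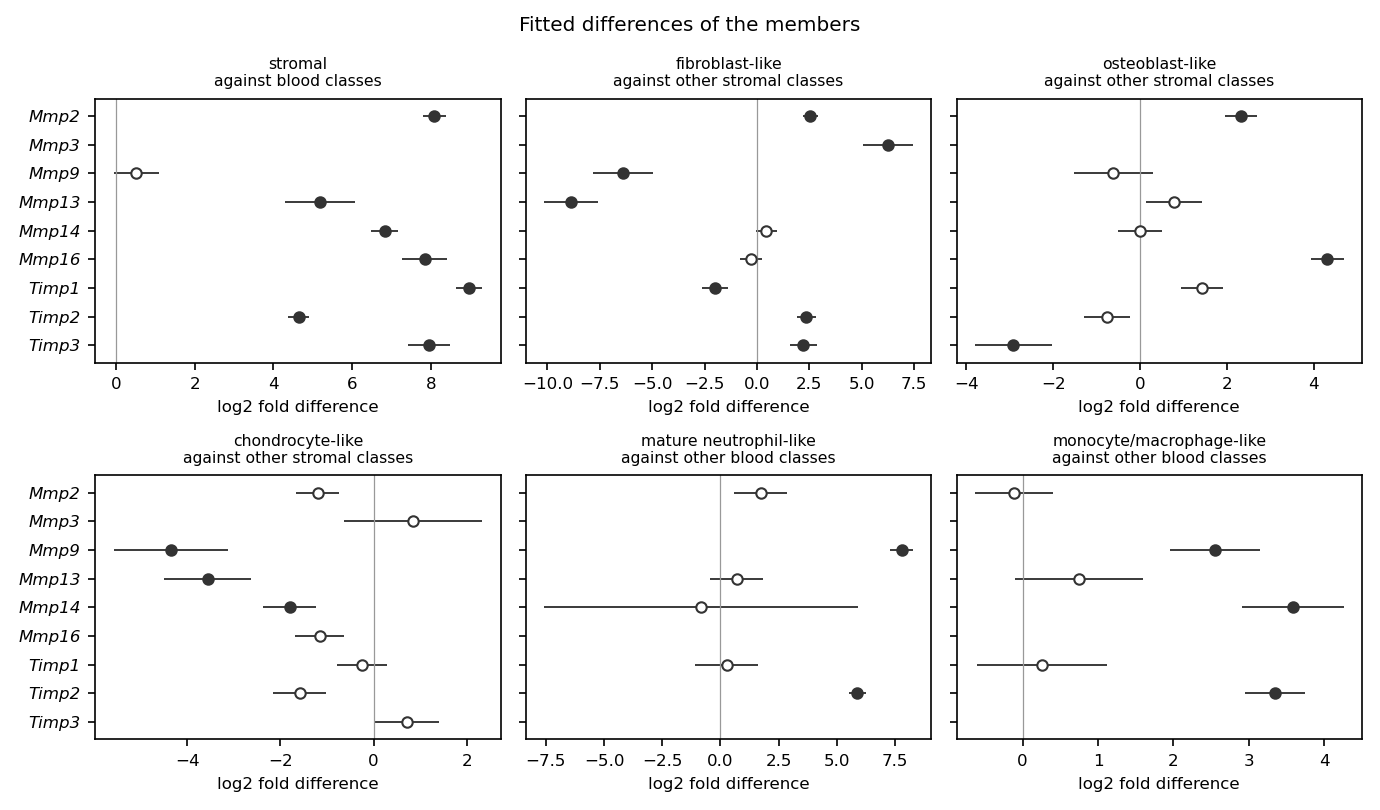
Fitted log2 fold difference of each member (rows) in the 6 comparisons, with bars of 1 SE and filled points for differences with an adjusted p under 0.05. Members for which the model gave no usable error are left out. Differences of stromal from blood classes reached 8.97 (Timp1), whereas that of Mmp9 was 0.52.

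Other genes of the pathway were read from lists chosen with results of these data known. Of 19 ADAMTS genes, relatives of the MMPs that cut proteoglycans and procollagen, 14 were tested. In stromal against blood classes 12 were higher and 0 lower (34.6% and 26.8% of all genes). In osteoblast-like cells 7 were higher and 0 lower (7.11% and 3.37% of all genes), whereas chondrocyte-like cells had 0 higher and 5 lower (8.33% and 5.03%). The largest were Adamts1 (9) in stromal cells and Adamts18 (4.93) in osteoblast-like cells, and Adamts12 fell by 4.96 in chondrocyte-like cells. Of 17 other MMPs, 6 were tested. Mmp23 was higher in stromal cells (6.92) and in osteoblast-like cells (3.05), Mmp19 in fibroblast-like (4.38) and monocyte/macrophage-like cells (5.18), and Mmp8 (8.58) and Mmp25 (7.51), the neutrophil collagenase and leukolysin, in mature neutrophil-like cells. Mmp8 was among the leading genes of both the mature and the immature neutrophil-like cluster.

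Genes that activate, dock, or clear MMPs were divided too. Of the 6 tested activation genes, fibroblast-like cells had 2 higher, the plasminogen activators Plau (5.15) and Plat (4.2), and 2 lower (12.2% and 5.96% of all genes). Of the 6 tested docking, clearance, and other inhibitor genes, 5 were higher in fibroblast-like cells (12.2% of all genes). Among them were the membrane inhibitor Reck (2.14) and Cd44 (2.40), a docking site of Mmp9. In mature neutrophil-like cells Reck (4.47) and Cd44 (4.02) were higher, and Bsg, the MMP inducer, fell by 1.72. Lrp1, the scavenger receptor that clears MMPs, was higher in stromal cells (5.93) and in monocyte/macrophage-like cells (5.23). Of 8 other matrix proteases, 7 were higher in monocyte/macrophage-like cells (16.6% of all genes), led by Ctsk (9.44), of which the 2 cells with osteoclast genes described above held 554 and 730 UMIs. Without the cells that carried at least 3 osteoclast markers, 6 were higher (2107 of all 13168 genes) and Ctsk stood at 3.58. In stromal against blood classes 4 of the 8 were higher and 4 lower (34.6% and 26.8% of all genes). Htra1 (8.85) and Fap (7.80) were higher and Ctss lower (-7.42).

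The genes most like each member in level over the 16 classes were found by Pearson correlation of mean log2(CPM + 10), given as a description since the classes share libraries. For Mmp2 these were Mrc2 (0.995), Pcolce (0.992), and Gli2 (0.988), for Mmp16 Shc2 (0.997), Bglap2 (0.988), and Cpz (0.988), and for Mmp14 Cald1 (0.975), Sdc2 (0.972), and Nectin3 (0.971). For Timp1 they were Gpx8 (0.990), Shox2, and Maged1, for Timp3 Trpc1 (0.988), B930095G15Rik, and Fzd2, and for Mmp3 Foxd1 (0.993), Klhdc8a, and Rnf152. Mmp13 was most like Gm9908 (0.992), A930033H14Rik, and Tead2. Mmp9 and Timp2, the members shared by stroma and neutrophils, had the lowest values, with Galc (0.893), Actn1, and Mcam for Mmp9 and Zfhx3 (0.939), Cask, and Tnfaip6 for Timp2. Between members, Mmp14 was most like Timp1 (0.922) and Mmp2 (0.902).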

How the data were processed

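The authors counted reads with Cell Ranger 6.1.2 on mm10, per the submitters' processing notes, and deposited unnormalized UMI counts by gene and barcode for the 2 mouse libraries. No deposited value was normalized or pooled. The libraries held 9932 and 3659 barcodes with 100808649 and 33306452 UMIs.

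Kept cells were integrated with Seurat 5.3.0 (R 4.3.3; canonical correlation, 3000 variable genes, 15 principal components, resolution 0.8), stromal cells being clustered again. The members and pathway lists were left out of the variable genes. Clusters were named X-like where at least 3 markers had a log2 fold of at least 1 and a UMI in at least 20% of cells, by a rule set after the clusters had been seen. Members, lists, markers, and tests were chosen with earlier results of these data known. Every member was described, and from a list at most the 3 called genes with the largest change in a comparison. One listed gene is not reported here.

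UMIs were summed per library and class (at least 10 cells in each) and fitted with edgeR 4.0.16 (TMM, filterByExpr, quasi-likelihood, Benjamini-Hochberg threshold 0.05). The SE given for an edgeR log2 fold is its absolute value divided by the square root of the F statistic of the test. The fit was run on simulated sums with known changes, drawn independently for each library and class. Before the changes every class held a gene's mean share of UMIs. Such sums lack the correlation between classes of a library and the classes without a member's UMIs, so they cannot check p-values under either. DESeq2 1.42.0, other settings, and leaving out each library were alternatives. Class sums of a number come from the same library: over 120 pairs of classes their deviations correlated at 0.046 to 0.464 (median 0.151), over 0.1 in 90. Scrublet (scanpy 1.11.5) marked 124 doublets in library 1 and 1 in library 2, where it did not work, and they were kept. Lepr+ stromal-like cells, with 7 in library 2, were not compared.

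Of 32285 gene identifiers, 32158 were found in GENCODE M21. Intervals are at 95%, and the level that 0 UMIs allow is that of 3 UMIs.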

Additional observations from a re-analysis of the deposited data

How the results depend on the processing

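Of 684 values of single members under alternatives, 559 stayed the same, 26 lost the call, and 25 gained one. A tested value stayed the same if it kept its direction and its side of the threshold. Without 1 library nothing is tested, and a value stayed the same if it kept its direction and moved by no more than the spread. Of these untested values, 35 moved by more than the spread and 9 turned direction. Of 30 tested values that turned direction, 2 had been called: Mmp14 in chondrocyte-like cells with skeletal muscle-like cells in the stromal mean (0.67) and Mmp9 in monocyte/macrophage-like cells without cells that carry osteoclast markers (-0.092). The other 28 were called neither before nor after. For Mmp9 in stromal against blood classes they were -0.89 at resolution 1.2, -1.02 with skeletal muscle-like cells, and -1.11 without the osteogenic progenitor-like cluster. The fit at resolution 0.4 held no neutrophil class, and the fits at resolutions 0.4 and 1.2 held no osteogenic progenitor-like class. In fibroblast-like cells Mmp16 was 0.36 at resolution 0.4, 0.11 at resolution 1.2, 1.49 with skeletal muscle-like cells, and 0.092 without that cluster. In osteoblast-like cells, in the same order, Mmp9 was 1.56, 1.48, 1.26, and 1.51 and Mmp14 0.25, 0.56, 2.40, and 0.49, with Mmp14 also at 0.056 without integration and 0.12 with the stricter cell filter, Mmp13 at -0.011 with that filter, and Timp2 at 0.068 with skeletal muscle-like cells. In chondrocyte-like cells Mmp3 was -0.71 with DESeq2, -0.74 at resolution 1.2, and -0.80 without the progenitor-like cluster, Timp1 was 0.35 at resolution 0.4, and with skeletal muscle-like cells Mmp2 was 1.23, Mmp16 0.63, and Timp1 1.23. In monocyte/macrophage-like cells Mmp13 was -0.023 and Timp1 -0.040 at resolution 0.4. Mmp2, Mmp9, Mmp14, Mmp16, and Timp3 had 0 UMIs in skeletal muscle-like cells of both libraries. Their differences cannot be measured with that class. Of 156 counts of members, 137 stayed within 1.5 times. The 19 others were as follows, and except where the alternative itself leaves out or adds cells the cause was not tested. In stromal against blood classes 3 were higher with skeletal muscle-like cells in the mean (2944 of 13188 genes). In fibroblast-like cells 2 were higher with DESeq2 (1440 of 13188 genes) or without integration (1471 of 13228), and 1 lower with skeletal muscle-like cells in the mean (465 of 13188). In osteoblast-like cells 4 were higher at resolution 0.4 (1275 of 13174 genes) and at resolution 1.2 (1015 of 13055). Without the osteogenic progenitor-like cluster 4 were higher as well (1050 of 13188). The lower count of osteoblast-like cells was 0 with DESeq2 (527 of 13188), at resolution 0.4 (406 of 13174), and with skeletal muscle-like cells (276 of 13188). It was 2 without the progenitor-like cluster (608 of 13188). In chondrocyte-like cells the lower count was 5 without a filter and with DESeq2, 6 with the replicate block, 0 at resolution 1.2, and 1 with the stricter cell filter, with skeletal muscle-like cells, and without the progenitor-like cluster. In monocyte/macrophage-like cells 1 was higher without cells that carry osteoclast markers (2107 of 13168 genes). Lepr+ stromal-like cells could be compared only at resolution 0.4, where they held 8 of the 10 high Mmp9 cells. There 3 were higher (Mmp9 7.89, Mmp13 5.36, Mmp14 1.46) and 0 lower (1103 and 809 of 13174 genes). The replicate block changed no other call of a member than Timp1 in osteoblast-like cells (1.58) and Mmp2, Mmp16, and Timp2 in chondrocyte-like cells. Over all genes it gave 1374 lower in place of 786 in fibroblast-like cells, 1438 and 787 in place of 938 and 444 in osteoblast-like, 1719 and 1151 in place of 1099 and 663 in chondrocyte-like, and 474 lower in place of 189 in monocyte/macrophage-like cells. With DESeq2, 1646 in place of 2542 genes were lower in mature neutrophil-like and 384 in place of 189 in monocyte/macrophage-like cells, at resolution 0.4 1801 were higher in chondrocyte-like and 754 lower in monocyte/macrophage-like cells, and with the stricter filter 300 were lower in the latter. With skeletal muscle-like cells in the mean, 2944 were higher in stromal cells, 465 lower in fibroblast-like, 1586 higher and 276 lower in osteoblast-like, and 1650 higher and 326 lower in chondrocyte-like cells. DESeq2's size factors moved the median log2 fold of all genes from 0.12 to 0.30 (stromal against blood), from -0.04 to 0.07 (fibroblast-like), and from -0.54 to -0.28 (mature neutrophil-like). The alternatives without osteoclast-marker cells, with skeletal muscle-like cells, without the progenitor-like cluster, and without bias adjustment were chosen after seeing the data. Depth limits Mmp3 and Timp4, and cell number limits fibroblast-like cells of library 1 (19 cells).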
